A study of Mus musculus with 31 samples.

Results

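The 10 genes Ddx4, Dazl, Mael, Rnf17, Tdrd1, Asz1, Stk31, Stag3, Sycp1 and Sycp3 work in germ cells and are known, in other cells, as genes that are held silent by DNA methylation at their promoters. They were followed by name through mouse induced pluripotent stem cells (iPSCs) and the embryoid bodies grown from them. The names were a given list, and each gene was read from the Affymetrix probe set annotated to it alone that had the highest mean over the 31 arrays. All 10 were measured, among 18194 genes. The groups were control iPSCs at day 0 (n = 10), Nos3-/- iPSCs at day 0 (n = 6), control embryoid bodies at day 11 (n = 9) and Nos3-/- embryoid bodies at day 11 (n = 6). Control mice were wild type of the strain CD1, and the Nos3-/- mice carried the allele of the strain B6.129P2-Nos3tm1unc/J, which lacks endothelial nitric oxide synthase, so that genotype and strain cannot be told apart. All 31 samples came from tail-tip fibroblasts of adult males that had been reprogrammed with Sendai virus. The day 0 cells grew on inactive mouse embryonic fibroblasts, known as feeders, so RNA of feeders can be part of each day 0 sample, and the embryoid bodies formed in microwells and differentiated without directing factors. The labels do not say which samples came from separate mice, clones or cultures, so the spread behind each p-value may be technical. DNA methylation was not measured, and the name of the gene list is background that these data do not check.

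Most genes of this list have promoters rich in CpG, the dinucleotide that carries DNA methylation in mammals. In early embryos the enzymes Dnmt3a and Dnmt3b, helped by Dnmt3l, write this methylation, and Dnmt1 with Uhrf1 copies it when DNA replicates. A second layer of repression comes from a variant Polycomb complex that contains E2f6, Mga, Max, L3mbtl2 and Pcgf6 and binds E2F6 motifs and E-boxes in the same promoters, and cultured pluripotent cells often transcribe some germline genes at a low level. In germ cells Ddx4, Mael, Tdrd1 and Asz1 belong to the nuage, the cytoplasmic granules in which piRNAs, small RNAs against transposons, are made or used, and Rnf17 and Stk31 are tudor domain proteins of the same cells. Dazl binds mRNAs and sets their translation, Stag3 is a subunit of meiotic cohesin, and Sycp1 and Sycp3 build the synaptonemal complex that joins paired chromosomes.

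RefSeq promoter windows of GRCm38.p6, each from 250 bases before to 50 bases after an annotated transcript start, matched 9 of the 10 genes, and Rnf17 was not matched. For genes with several starts the most upstream window was taken. The 9 windows held 15 CpGs (Sycp3) to 38 (Ddx4), with a median of 24, against a median of 7 over all 32851 windows of the table. The letters TCCCGC, or GCGGGA on the other strand, are the E2F6 motif, and CACGTG, which reads the same on both strands, is the E-box. The E2F6 motif was in 5 of the 9 windows (Ddx4, Mael, Stag3, Sycp1, Sycp3), against 19.98% of all windows and 45.4% of the 11378 windows with at least 15 CpGs. The E-box was in 7 of the 9, all but Dazl and Asz1, against 7.15% of all windows and 11.3% of those with at least 15 CpGs. All 5 windows with the E2F6 motif also held an E-box, a combination present in 1.99% of all windows and 5.04% of the CpG-rich ones, and the motifs shared 0 bases in any window of the 9 genes. A match describes the letters only, and binding was not measured.

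Stretches of 200 bases, from 180 before to 20 after the start, are printed for 6 genes, 5′ to 3′ on the gene's own strand, with E2F6 motifs and E-boxes in capitals. Stag3 (chr5:138280329-138280528, plus strand) and Sycp1 (chr3:102936081-102936280, minus strand) are shown because they carried both motifs and differed between the genotypes at day 0. Stk31 (chr6:49395359-49395558, plus strand) had an E-box alone and Dazl (chr17:50293601-50293800, minus strand) had neither, and both also differed. Tdrd1 (chr19:56826029-56826228, plus strand) and Asz1 (chr6:18109042-18109241, minus strand) are the genes whose signal hardly varied.
Stag3: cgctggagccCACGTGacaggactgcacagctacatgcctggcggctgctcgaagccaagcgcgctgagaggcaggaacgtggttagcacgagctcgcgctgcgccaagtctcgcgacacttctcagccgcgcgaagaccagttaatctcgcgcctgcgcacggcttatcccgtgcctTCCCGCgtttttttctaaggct
Sycp1: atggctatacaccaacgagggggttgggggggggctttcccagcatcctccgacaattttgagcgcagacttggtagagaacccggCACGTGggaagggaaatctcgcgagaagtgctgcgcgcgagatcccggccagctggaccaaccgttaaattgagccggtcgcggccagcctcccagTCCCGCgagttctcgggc
Stk31: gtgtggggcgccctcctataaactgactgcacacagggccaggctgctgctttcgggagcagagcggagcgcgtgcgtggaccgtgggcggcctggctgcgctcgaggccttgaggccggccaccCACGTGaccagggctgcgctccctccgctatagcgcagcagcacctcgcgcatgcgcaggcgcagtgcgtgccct
Dazl: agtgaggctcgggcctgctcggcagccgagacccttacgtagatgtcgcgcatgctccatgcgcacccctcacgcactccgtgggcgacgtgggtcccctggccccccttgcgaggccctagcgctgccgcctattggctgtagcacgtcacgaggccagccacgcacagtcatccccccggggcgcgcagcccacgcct
Tdrd1: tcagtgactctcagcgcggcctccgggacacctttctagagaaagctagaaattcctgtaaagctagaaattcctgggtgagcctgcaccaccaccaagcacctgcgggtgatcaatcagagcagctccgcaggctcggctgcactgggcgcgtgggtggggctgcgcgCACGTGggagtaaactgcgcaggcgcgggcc
Asz1: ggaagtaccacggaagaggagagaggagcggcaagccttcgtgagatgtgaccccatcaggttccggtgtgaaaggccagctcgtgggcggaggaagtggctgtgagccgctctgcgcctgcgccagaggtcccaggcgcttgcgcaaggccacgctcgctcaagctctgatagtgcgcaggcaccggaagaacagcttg

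In these stretches the E-box of Stag3 lay 170 bases before the start and its E2F6 motif began 2 bases before it. In Sycp1 the E-box lay 94 bases before the start and the E2F6 motif began at base 3 after it. Tdrd1 kept an E-box 11 bases before its most upstream start, and the stretch of Asz1 had neither motif but held 15 CpGs.

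**Figure D1:**
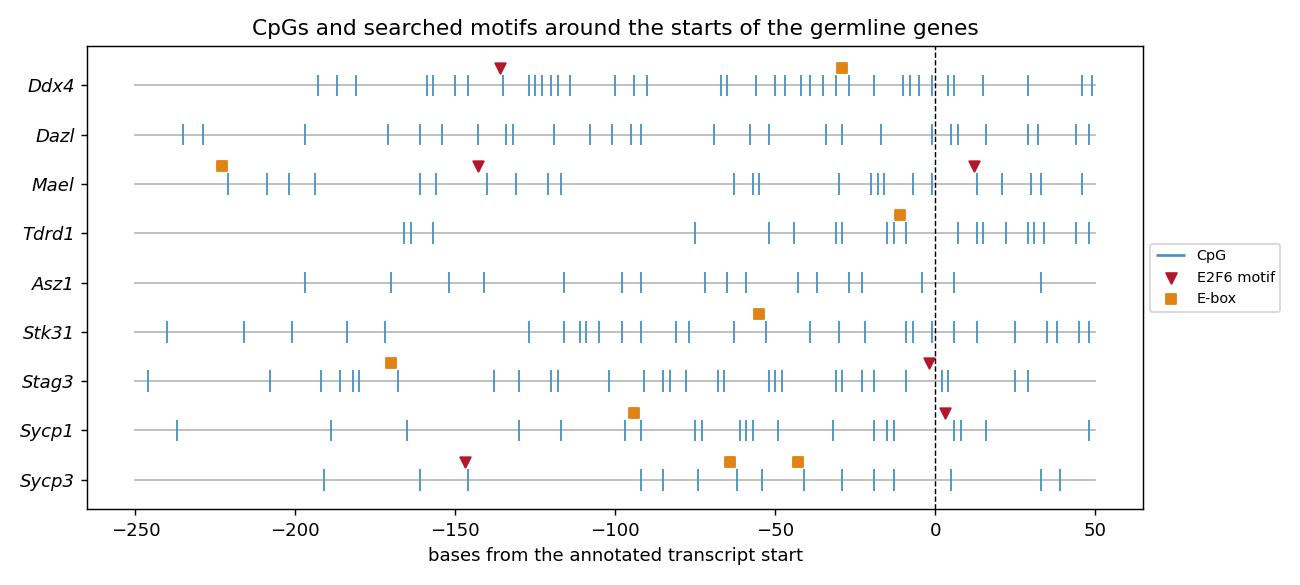
Position of each CpG (blue line), E2F6 motif (red triangle) and E-box (orange square) in bases from the annotated transcript start (dashed line) for the 9 germline genes with a window, from 250 bases before to 50 bases after the start. Triangles are present in 5 genes and squares in 7, while Dazl and Asz1 have CpGs only.

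The values are log2 intensities as deposited, in which 1 unit is a doubling, and they allow a gene to be compared between arrays but not with another gene. The array medians ran from 6.13 to 6.23. Pou5f1, which defines pluripotent cells, had a lowest level of 11.55 on the day 0 arrays and a median of 11.78 on the control day 11 arrays. The targeted gene Nos3 had a median of 6.62 (lowest 6.36, highest 7.05) in control and 7.06 (6.73 to 7.13) in Nos3-/- arrays at day 0, and 7.05 (6.76 to 7.43) and 6.91 (6.70 to 7.06) at day 11. Its signal was thus not lower on the arrays labelled Nos3-/- at day 0 (log2 difference 0.33, adjusted p = 0.0295 in limma). The sources do not place its probe set relative to the deleted part of the gene, so this level does not check the labels, and Nos3-/- and control below are the names the labels give. The array labelled Nos3-/- replicate 3 stood apart at each day, and the labels do not say whether the arrays of that number share an origin. On the day 0 array its pluripotency marker mean was 9.31, against 11.36 to 11.79 in the other 5 of its group, and at day 11 it was 8.99 against 10.26 to 11.50.

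The germline genes split by how far they varied. Ddx4, Dazl, Mael, Rnf17, Stk31, Stag3, Sycp1 and Sycp3 ranged over 3.11 (Sycp1) to 6.76 (Rnf17) log2 units between the lowest and the highest of the 31 arrays, so they were not held at 1 fixed low signal in these cells. Their spread within groups was wide for the arrays used: the pooled within-group SD was 1.46 for Rnf17, 1.46 for Ddx4 and 0.49 for Sycp1, against a median of 0.21 over all genes. For Rnf17, Ddx4 and Sycp3, 99.9% of genes had a smaller SD, and for Sycp1 91.1% did. Tdrd1 ranged over only 0.56 and Asz1 over 0.62 log2 units, with SDs that exceeded those of 12.1% and 6.7% of genes.

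The 8 varying genes rose and fell on the same arrays. Within the Nos3-/- day 0 group, replicate 3 was the lowest array for all 10 genes, tied with replicate 6 for Tdrd1 and Asz1. Replicate 5 was the highest for 9 of them. In the Nos3-/- day 11 group, replicate 3 was the lowest and replicate 4 the highest for the 8 varying genes. Among control day 0 arrays, replicate 9 was the highest for 6 of the 10 genes and tied with replicate 1 for Stag3, and replicates 3 and 10 were the lowest for 4 each. In control day 11, replicate 1 was the highest for 6 genes, among them Tdrd1, which hardly varied, and Mael, where replicate 5 tied with it. The SD of the 8 varying genes was larger in the Nos3-/- group than in the control group for 8 of 8 genes at day 0 and 8 of 8 at day 11, and without Nos3-/- replicate 3 for 4 and 6 of them. These 8 were picked by their SD over all arrays, Nos3-/- arrays included, so such counts are partly built in. At day 0 the SD of Tdrd1 was 0.14 in control and 0.12 in Nos3-/-, and that of Asz1 0.11 and 0.1. The share over all genes was not counted.

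**Figure D2:**
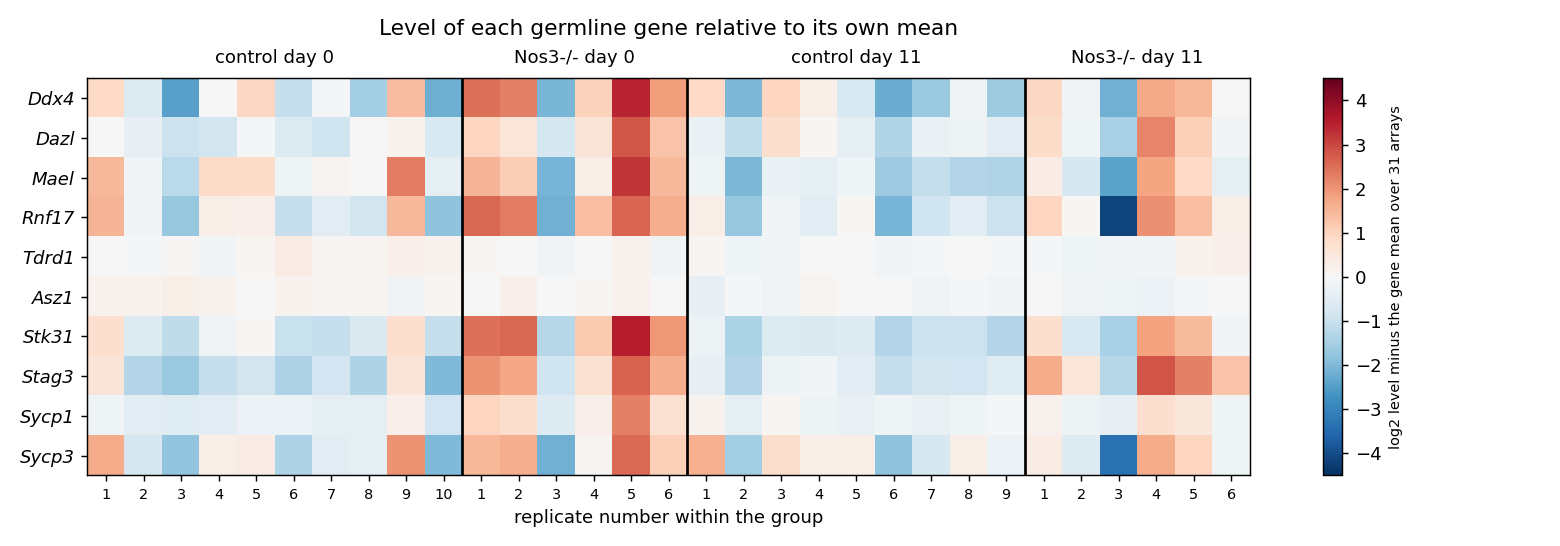
Log2 level of each germline gene on each of the 31 arrays minus that gene's mean over all arrays (colour scale; red above, blue below), with arrays in columns by group and replicate number. Columns are mostly of 1 colour across the 8 varying genes, Nos3-/- replicate 3 is blue on both days, and the rows of Tdrd1 and Asz1 are near white.

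The first comparison asks how iPSCs without Nos3 differ from control iPSCs before differentiation. Of the 10 germline genes 4 were higher in Nos3-/- iPSCs and 0 were lower at an adjusted p under 0.05 in limma, while 9.17% of all genes tested were higher and 7.47% lower. The 4 were Stag3, Stk31, Dazl and Sycp1, with 2.13 to 4.75 times the control level. The median log2 difference of the 10 genes was 1.22, against 0.01 over all genes. In each of them the Nos3-/- and control arrays overlapped, as for the other 6, so 0 of 10 were separated, against 1.92% of all genes. Without Nos3-/- replicate 3 the groups of Stag3, Stk31 and Dazl did not overlap, 3 of 10 against 5.54% of all genes.

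Among the genes of meiotic chromosomes, Stag3 had the largest difference of the list. Its level at day 0 was 3.60 at the lowest, 4.42 at the median and 6.18 at the highest in control, and 4.71, 7.30 and 8.25 in Nos3-/-. Nos3-/- replicate 3 (4.71) lay among the controls, and the other 5 Nos3-/- arrays (6.29 and above) lay above every control array. The log2 difference was 2.25 (SE 0.49, adjusted p = 0.00237). Sycp1, which forms the transverse filaments of the synaptonemal complex, was at 3.24, 3.69 and 4.33 in control and at 3.49, 4.84 and 6.35 in Nos3-/-. The Nos3-/- arrays other than replicate 3 started where the controls ended, at 4.33, and the log2 difference was 1.09 (SE 0.24, adjusted p = 0.00276). Its SD was 0.28 in control and 0.94 in Nos3-/-. The fit took 1 spread for all groups, so this SE and p may be too small. Sycp3, of the axial elements of the same complex, was at 5.73, 7.27 and 9.76 in control and 5.56, 9.02 and 10.27 in Nos3-/-. Both groups covered nearly the same range, and its log2 difference of 1.03 (SE 0.70) did not pass (adjusted p = 0.336).

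Stk31, a tudor domain protein with a kinase-like domain, was at 3.23, 3.73 and 5.12 in control and at 3.08, 6.58 and 7.89 in Nos3-/- at day 0. Its lowest value of all 16 day 0 arrays was that of Nos3-/- replicate 3, and the other 5 Nos3-/- arrays lay at 5.53 or above, over the highest control. The log2 difference was 2.14 (SE 0.50, adjusted p = 0.00424). Dazl was at 5.12, 5.59 and 6.26 in control and at 5.30, 6.88 and 8.89 in Nos3-/-. The 10 controls of Dazl lay within 1.14 log2 units, and the Nos3-/- arrays spread over 3.59. The log2 difference was 1.34 (SE 0.42, adjusted p = 0.0267). This call rested on single arrays: without Nos3-/- day 0 replicate 5 the difference was 0.96 (adjusted p = 0.135), and without replicate 6 it was 1.26 (adjusted p = 0.0624).

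The 5 other genes with roles in RNA granules did not pass at day 0. Ddx4, the RNA helicase known as Vasa, was at 3.66, 5.77 and 7.49 in control and at 4.05, 8.21 and 9.54 in Nos3-/-, a log2 difference of 1.98 (SE 0.72, adjusted p = 0.0559). Rnf17, a tudor domain protein of male germ cells, was at 5.91, 7.40 and 9.23 in control and at 5.55, 9.67 and 10.32 in Nos3-/-, a log2 difference of 1.63 (SE 0.72, adjusted p = 0.121). For Ddx4 replicate 3 lay near the bottom of the control range and for Rnf17 below it, while the other Nos3-/- arrays reached from within the upper control range to above it. Mael, needed in germ cells to keep transposons silent, had a log2 difference of 0.55 (SE 0.59, adjusted p = 0.572), with 4.84, 6.12 and 8.37 in control and 3.95, 7.33 and 9.26 in Nos3-/-. Tdrd1, a tudor scaffold for PIWI proteins, was within 4.31 to 4.81 in control and 4.30 to 4.60 in Nos3-/- (log2 difference -0.11, SE 0.07, adjusted p = 0.297). Asz1, an ankyrin repeat protein on germ cell mitochondria, was within 5.78 to 6.18 and 5.92 to 6.14 (log2 difference -0.02, SE 0.07, adjusted p = 0.89).

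With Nos3-/- replicate 3 of both days left out, a choice made after the data were seen, 7 of 10 germline genes were higher at day 0, with 2465 of all genes higher. Ddx4 (log2 difference 2.69, adjusted p = 0.00173), Rnf17 (2.34, 0.00065) and Sycp3 (1.62, 0.0426) were the added genes in that limma fit. Replicate 3 was the lowest array of its group for these genes, so leaving it out raises the Nos3-/- mean by construction.

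**Figure D3:**
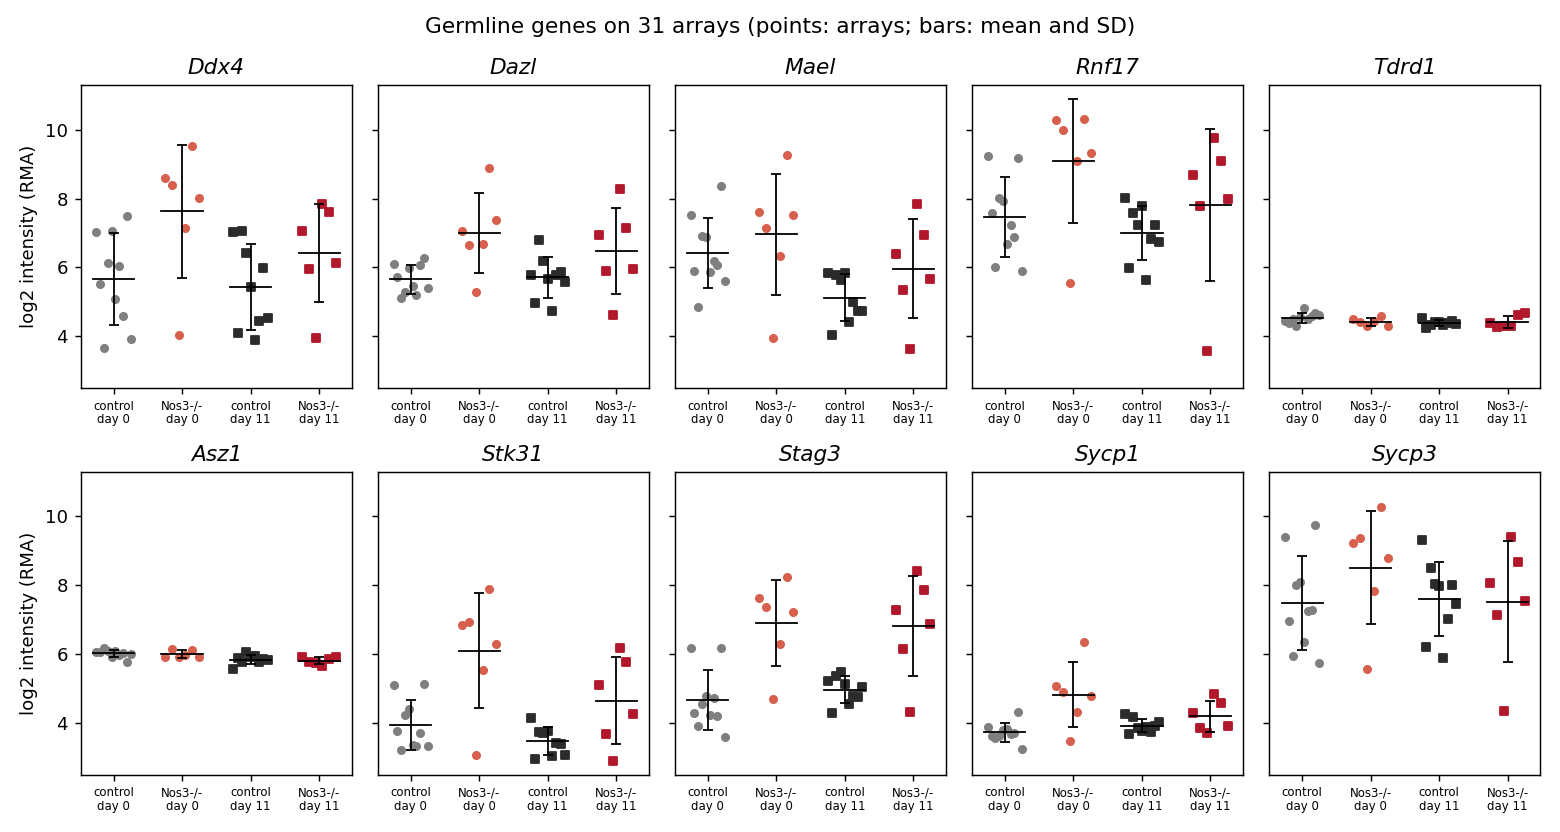
Log2 intensity of each germline gene on each of the 31 arrays, by group (points: arrays in replicate order; bar and whiskers: mean and SD; n = 10, 6, 9 and 6), to be compared within a panel only. In Stag3 and Stk31 5 of the 6 Nos3-/- day 0 points lie above all control day 0 points, and 1 point, replicate 3, lies low.

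Dazl, Stk31, Rnf17 and Asz1 had several probe sets, and at day 0 those of the first 3 had differences of 1 sign. The second Dazl probe set had a log2 difference of 1.44 at day 0 beside 1.34 for the one used, and the second of Stk31 had 1.95 beside 2.14. The 3 other probe sets of Rnf17 had 1.31, 1.10 and 1.26 beside 1.63, and over time in Nos3-/- the 4 probe sets of Rnf17 ran from -0.29 to -1.28. When each gene was read as the average of its probe sets in limma, Dazl at day 0 no longer passed (1.39, adjusted p = 0.051) and Rnf17 passed (1.32, adjusted p = 0.0384). The second Asz1 probe set had 0.16 at day 0 and -0.26 at day 11, beside -0.02 and -0.03.

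The level of the germline genes moved with that of pluripotency markers across arrays. The mean of the 8 varying germline genes per array was 4.54 to 7.09 in control and 4.46 to 8.85 in Nos3-/- at day 0, and the mean of 12 pluripotency markers was 10.00 to 11.49 and 9.31 to 11.79. The 2 controls with the highest germline mean, replicates 9 (7.09) and 1 (6.80), also had the highest marker means, 11.29 and 11.49, and the other 8 controls had marker means up to 10.65. Of the markers 3 of 12 were higher in Nos3-/- at day 0 (Nanog by 1.44, Fgf4 by 1.27, Sox2 by 1.03) and 0 were lower. The marker Zfp42, named after its values were seen, went the other way (-1.37, adjusted p = 0.134) and did not pass. Of 12 fibroblast and feeder markers 0 were higher and 4 were lower, among them Col1a1 (-1.26), and their mean was 9.39 to 10.97 in control and 9.11 to 10.22 in Nos3-/-. In these bulk samples fewer cells of a type and less RNA per cell cannot be told apart.

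With the mean of the pluripotency markers as a covariate and only day 0 arrays fitted, an alternative chosen after the data were seen, 2 of 10 germline genes stayed past the threshold, with 564 of all genes higher and 322 lower. Stag3 had a log2 difference of 1.35 (adjusted p = 0.00103) and Stk31 of 1.12 (adjusted p = 0.00674) in that limma fit, while Dazl (0.78, adjusted p = 0.12) and Sycp1 (0.66, adjusted p = 0.0968) did not pass. With the mean of the fibroblast and feeder markers in its place 0 of 10 passed, with 164 genes higher and 144 lower, and Stag3 was at 1.90 (adjusted p = 0.199) and Stk31 at 1.54 (adjusted p = 0.388).

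**Figure D4:**
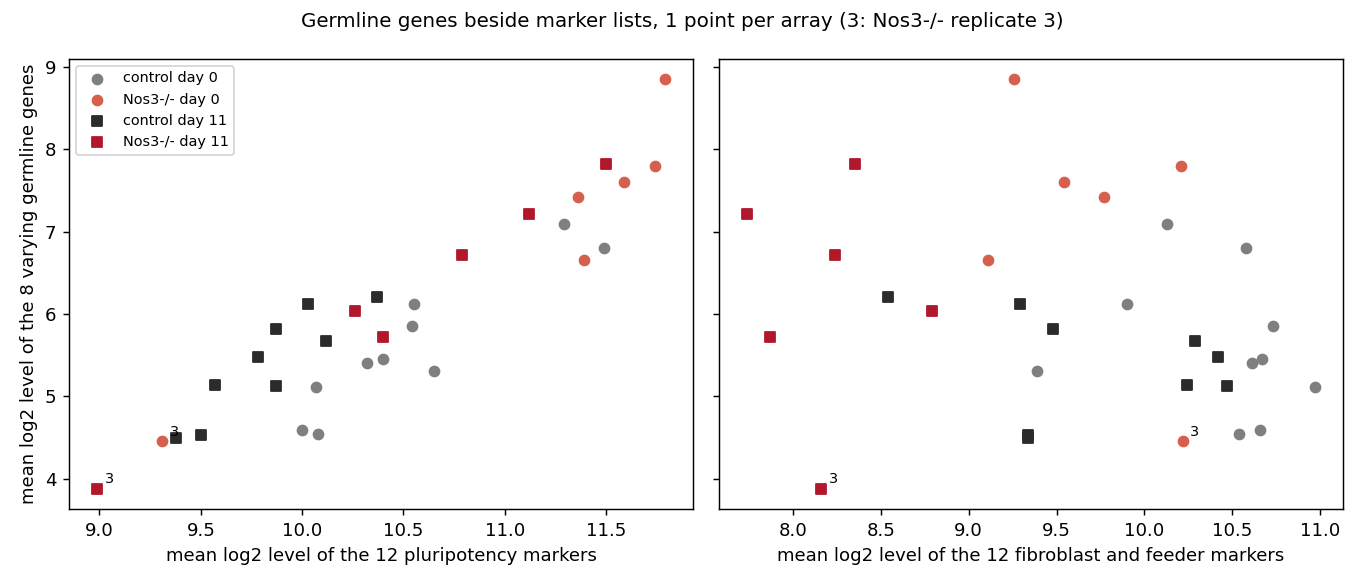
Mean log2 level of the 8 varying germline genes (y axis) against the mean log2 level of 12 pluripotency markers (left) and of 12 fibroblast and feeder markers (right), 1 point per array, coloured by group. Arrays with a high pluripotency mean have a high germline mean in all 4 groups, and Nos3-/- replicate 3 lies at the lower left of the left panel on both days.

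Other germline genes were measured from 3 lists beside these 10. Each count is to be read beside the 9.17% of all genes that were higher and the 7.47% that were lower at day 0. Of 21 other meiosis genes 11 were higher and 0 lower in Nos3-/- iPSCs, among them Dmc1, the meiotic recombinase (log2 difference 2.27, SE 0.61, adjusted p = 0.011), Hormad1, of the chromosome axis (1.66, SE 0.51, adjusted p = 0.0261), and Tex14, of the bridges between germ cells (1.43, SE 0.34, adjusted p = 0.00483). Their median difference was 0.53. Of 16 other piRNA pathway genes 4 were higher and 0 lower, with Tdrd12 at 2.32, Gtsf1 at 2.00 and Pld6 at 0.78, and Tex19.1 at 1.27 did not pass (adjusted p = 0.102). Of 16 genes of germ cell specification and identity 5 were higher and 0 lower, with the homeobox genes Rhox5 (2.61) and Rhox9 (1.75) and the germ cell factor Dppa3 (1.59). Of 10 genes listed as spermatid genes 1 was higher and 0 were lower. It was the lactate dehydrogenase Ldhc (0.60), and Prm1, a protamine, was at 0.05 and did not pass.

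The writers and erasers of DNA methylation gave no call between genotypes. Of 8 measured enzymes 0 were higher and 0 lower in limma at either day, and at an unadjusted p under 0.05 the counts were 0 at day 0 and 1 at day 11. The day 0 log2 differences were 0.08 (SE 0.12) for Dnmt1, 0.07 (SE 0.27) for Dnmt3a, -0.42 (SE 0.23) for Dnmt3b, 0.97 (SE 0.62) for Dnmt3l, -0.11 (SE 0.13) for Uhrf1 and 0.35 (SE 0.29) for Tet1, with adjusted p from 0.22 to 0.889. At an SE of 0.62 the difference of Dnmt3l was poorly fixed. Of 18 measured subunits of repressor complexes at germline promoters 2 were higher and 0 lower at day 0, near the 9.17% and 7.47% of all genes. The 2 were Hdac1, a histone deacetylase (0.72, adjusted p = 4.11e-06), and Rnf2, a Polycomb ubiquitin ligase (0.29, adjusted p = 0.00749).

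At day 11 the embryoid bodies were compared between genotypes in the same way. Of the 10 germline genes 1 was higher in Nos3-/- and 0 were lower, against 4.41% and 5.29% of all genes. The gene was Stag3. Its level was 4.30, 5.06 and 5.47 (lowest, median, highest) in control and 4.31, 7.09 and 8.43 in Nos3-/-. Replicate 3 (4.31) was again among the controls, and the other 5 Nos3-/- arrays, from 6.14, were above all 9 controls. The log2 difference was 1.86 (SE 0.50, adjusted p = 0.0139), 3.62 times the control level. Its SD was 0.39 in control and 1.46 in Nos3-/-, so the SE and p, from a shared spread, may be too small. This call also depended on single arrays: leaving out each array in turn gave adjusted p from 0.00061 to 0.0612, and Stag3 did not pass without Nos3-/- day 11 replicate 4 (1.54, adjusted p = 0.0612) or replicate 5 (1.65, adjusted p = 0.0501).

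The other germline genes did not pass at day 11. Stk31 was at 2.94, 3.41 and 4.14 in control and 2.90, 4.68 and 6.17 in Nos3-/- (log2 difference 1.18, SE 0.51, adjusted p = 0.158). Dazl was at 4.74, 5.78 and 6.80 and at 4.63, 6.45 and 8.28 (0.77, SE 0.43, adjusted p = 0.309). Ddx4 (0.99), Mael (0.86) and Rnf17 (0.81) had adjusted p from 0.462 to 0.598, Sycp1 was at 0.28, Sycp3 at -0.08, and Tdrd1 and Asz1 were at 0.04 and -0.03. The median of the 10 genes was 0.79 against 0.00 over all genes. All 10 overlapped between genotypes, against 2.60% of genes without overlap, and without Nos3-/- replicate 3 only Stag3 did not overlap, 1 of 10 against 5.05% of all genes. With replicate 3 of both days left out 4 of 10 were higher at day 11, with 1198 of all genes higher, the added ones being Dazl (1.14, adjusted p = 0.0347), Stk31 (1.53, adjusted p = 0.007) and Rnf17 (1.66, adjusted p = 0.0206).

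Pluripotency markers differed at day 11 as well, with 6 of 12 higher and 0 lower in Nos3-/- (Fgf4 by 2.85, Tdgf1 by 1.52, Nanog by 1.25), and 7 of 12 fibroblast and feeder markers lower (Postn by -3.76). Of the pluripotency markers 2 were lower at an unadjusted p under 0.05, Zfp42 (-1.35, adjusted p = 0.211) and Tbx3 (-1.001, adjusted p = 0.0792), both named after their values were seen. The marker means were 9.38 to 10.37 in control and 8.99 to 11.50 in Nos3-/- for pluripotency, and 8.54 to 10.47 and 7.74 to 8.79 for fibroblasts. Of 16 markers of embryoid body cells 1 was higher and 5 were lower, against 4.41% and 5.29% of all genes. Their means were 8.10 to 10.01 in control and 6.59 to 9.16 in Nos3-/-. With the pluripotency mean as a covariate on the day 11 arrays, Stag3 was still higher (0.84, adjusted p = 0.0183), while Sycp3 (-1.54, adjusted p = 0.00346) and Rnf17 (-0.85, adjusted p = 0.03) were lower. In that limma fit 724 of all genes were higher and 776 lower. With the fibroblast and feeder mean Stag3 had nearly its size, 1.79, and did not pass (adjusted p = 0.348).

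The other lists at day 11 stand beside 4.41% of all genes higher and 5.29% lower. Of 21 meiosis genes 2 were higher and 0 were lower. The 2 were Smc1b, another cohesin subunit of meiosis, by 1.11, and Spo11, which makes meiotic breaks, by 0.26. Spo11 lay within 4.49 to 5.02 in control and 4.78 to 5.16 in Nos3-/-, so its groups overlapped. Of 16 piRNA pathway genes Gtsf1 (1.17) and Gpat2 (0.98) were higher, and Tdrd12 was at 1.62 (adjusted p = 0.0529). Of the specification genes Rhox9 (1.90) and Ifitm3 (0.64) were higher. Hdac1 was higher by 0.52 and Ring1 by 0.33. Of the spermatid genes 0 passed in limma, and 1 had an unadjusted p under 0.05.

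The change from day 0 to day 11 shows whether the germline signal declined as the cells differentiated. In control 1 of 10 germline genes was lower at day 11, against 18.2% of all genes, and the other 9 did not pass. The gene was Asz1, from a median of 6.05 to 5.86, with a log2 change of -0.18 (SE 0.06, adjusted p = 0.0172). Averaged over its probe sets Asz1 changed by -0.01 (adjusted p = 0.957), since its second probe set changed by 0.17. Mael, from a median of 6.12 to 4.99, changed by -1.30 (SE 0.53, adjusted p = 0.0554) and Tdrd1 by -0.15 (adjusted p = 0.0555). The other 7 genes lay between -0.49 (Stk31) and 0.30 (Stag3), and none of these passed. The median over the 10 genes was -0.17 against -0.03 over all genes. In the same arrays 5 of 12 pluripotency markers were lower (Fgf4 by -1.91, Tdgf1 by -1.73, Zfp42 by -1.63) and Tbx3 was higher. Of 12 fibroblast and feeder markers 3 were higher and 5 lower. Of 16 markers of embryoid body cells 11 were higher and 2 lower, against 2919 of all 18194 genes higher. Among the higher ones were Afp of visceral endoderm and liver (5.10) and Tnnt2 of heart muscle (4.73).

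In Nos3-/- cells 0 germline genes were higher and 2 were lower at day 11, against 13.0% and 18.1% of all genes. Stk31 went from a median of 6.58 to 4.68, a log2 change of -1.45 (SE 0.56, adjusted p = 0.0483), and Asz1 changed by -0.19 (SE 0.07, adjusted p = 0.0457). Both calls lay close to the threshold: leaving out single arrays ended that of Stk31 in 24 of 31 omissions (adjusted p up to 0.156) and that of Asz1 in 12 (up to 0.111), and with the Nos3-/- arrays fitted by themselves neither passed (adjusted p of 0.192 and 0.0851). Rnf17 (-1.28), Ddx4 (-1.20), Mael (-0.998), Sycp3 (-0.98), Sycp1 (-0.62) and Dazl (-0.52) did not pass, and Stag3 was at -0.09. The median over the 10 was -0.80 against -0.06 over all genes. Without Nos3-/- day 0 replicate 3 alone, 6 of 10 were lower at day 11, with 3476 of all 18194 genes lower in that fit, and omissions of other single arrays left as few as 0. No germline gene separated the days in either genotype, against 6.52% of all genes in control and 7.83% in Nos3-/-. Over time in Nos3-/- 2 of 12 pluripotency markers and 8 of 12 fibroblast and feeder markers were lower, and 0 of either list were higher. Of 16 markers of embryoid body cells 7 were higher and 1 lower.

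The other lists were counted over time in the same way. Over all 18194 genes 2919 were higher and 18.2% lower in control, and 13.0% were higher and 18.1% lower in Nos3-/-. Of the piRNA pathway genes Tdrd12 was lower in control (-1.27), and 6 of 16 were lower in Nos3-/-, with Tdrd12 at -1.97, Gtsf1 at -1.16 and Pld6 at -0.84. Of the meiosis genes Mei4 (-1.01) and Majin (-0.27) were lower and Sycp2 (0.30) higher in control, and 5 of 21 were lower in Nos3-/-, with Mei4 at -1.43, Tex11 at -0.91 and Stra8 at -0.83. Among the enzymes, Dnmt1 rose by 0.38 (SE 0.10, adjusted p = 0.00555) and Dnmt3b fell by 0.62 (adjusted p = 0.0203) in control, and in Nos3-/- 0 of 8 passed (3 at an unadjusted p under 0.05), with Dnmt1 at 0.33 (adjusted p = 0.0534) and Dnmt3b at 0.13. Of 18 measured repressor complex subunits 5 were higher and 2 lower in control, and 3 were higher and 1 lower in Nos3-/-. Mga, of the variant Polycomb complex, was among those higher in control embryoid bodies (0.60) and Pcgf6 among those lower (-0.27).

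Whether the genotypes differed in their change over time was tested as an interaction, since the numbers of calls in each genotype do not answer it. Of the 10 germline genes 0 passed, against 0.522% of all genes with a more positive and 0.715% with a more negative change in Nos3-/- than in control. The nearest was Sycp1 (log2 difference -0.82, SE 0.35, unadjusted p = 0.0249, adjusted p = 0.223), and it was the 1 germline gene with an unadjusted p under 0.05. Its change was 0.20 in control and -0.62 in Nos3-/-. Without Nos3-/- day 0 replicate 3 its interaction was -1.08 and passed (adjusted p = 0.0361). The lists of meiosis, piRNA and specification genes also had 0 calls in limma, with 2, 3 and 2 genes at an unadjusted p under 0.05.

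**Figure D5:**
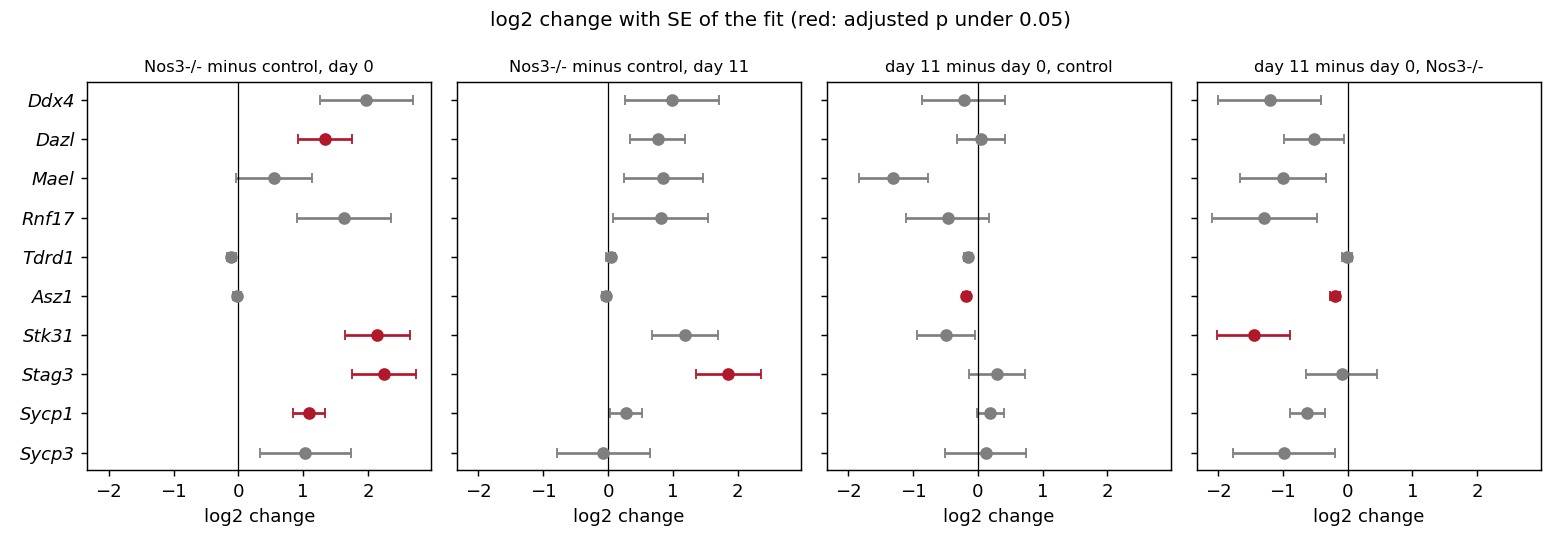
Log2 change of each germline gene (points) with the SE of the limma fit (bars) in 4 comparisons, red where the adjusted p is under 0.05. Stag3 is red at both days between genotypes (2.25 and 1.86), Stk31, Dazl and Sycp1 at day 0 only, and Tdrd1 and Asz1 lie near 0 with short bars.

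The genes whose pattern was most like that of the list were ranked by a Pearson correlation over the 31 arrays. It was taken between a gene's level and the mean of the 10 standardised germline levels. The arrays differ in genotype, day and pluripotency level, and the correlations were not adjusted for these. Symbols of predicted genes and clones were left out of the ranking, so the order holds among the other genes only. Dhx16, annotated as an RNA helicase (r = 0.963), and Cyct, the testis form of cytochrome c (r = 0.954), came first, followed by Hsf2bp (0.943), Hormad1 (0.942), Pramel13 (0.94) and Mageb16 (0.937). Over the 16 day 0 arrays Dhx16 (0.97), Cyct (0.966), Hormad1 (0.966) and Mageb16 (0.955) were again among the first 6, with Rex2 (0.958) and Amhr2 (0.955). At day 0 Dhx16 was higher in Nos3-/- by 1.16 (SE 0.36, adjusted p = 0.0254) and Rex2 by 1.05 (adjusted p = 0.0303), and Cyct at 1.46 did not pass (adjusted p = 0.113).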

How the data were processed

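RNA of 31 samples was hybridised as biotinylated cRNA to 31 Affymetrix arrays, per the labels' protocols. Per the submitters' processing notes the authors used RMA (version not given in the sources), and the deposited values are log2 intensities, from 2.32 to 15.01. The number of arrays per group limits the precision. Of 45101 probe sets 34958 carry 1 gene symbol, and each of 18194 genes was read from its probe set with the highest mean. A limma model (version 3.58.1, R 4.3.3) gave group means over all genes and arrays (27 residual and 2.8 prior degrees of freedom). It took 1 spread per gene for all groups. Where the smaller Nos3-/- groups spread more than control, SEs and p-values can be too small. The threshold was a p of 0.05 after Benjamini-Hochberg adjustment over all genes, and SE is that of the group contrast in this fit. The script was tested on simulated data. Of the gene lists, 8 entries were not measured.

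The members, the other lists and the tests were chosen with earlier results of these data known. The text names the 10 members and 6 methylation enzymes always, and from each other list and comparison at most 3 passing genes from each end plus the 2 of highest level that did not pass, or a part of these, and 6 likest genes. Tdrd1 and Asz1 were set apart because their SD over the arrays was under 0.5. Alternatives varied the normalization, the filter on low levels, the probe set per gene, the variance model, the arrays in the fit, a replicate block and single arrays. Labels give no batch or scan date.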

Additional observations from a re-analysis of the deposited data

Results flagged for a closer look

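Of 40 combinations of a germline gene and a group, 2 held an array far from the rest of its group by Dixon's criterion, and chance marks about 1 group in 20. Both concern Rnf17 in the arrays labelled Nos3-/- replicate 3. Its level at day 0 was 5.55, with the nearest array of the group at 9.08, a gap of 0.74 of the group's range, above the limit for 6 arrays. At day 11 it was 3.56, with the nearest at 7.77 and a gap of 0.678 of the range. The pluripotency marker mean of the same arrays was the lowest of their groups, 9.31 and 8.99, and its part in these levels was not tested.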

How the results depend on the processing

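Under the alternatives other than leaving out 1 array, 497 of 540 values of the germline genes kept their direction and side of the threshold, 14 lost and 28 gained a call, and Rnf17 at day 11 turned to -0.85 (adjusted p = 0.03) with the pluripotency mean as covariate. The cause was not tested. Leaving out each array gave 3 to 6 germline genes at day 0, 0 to 2 at day 11, 1 to 3 over time in control, 0 to 6 over time in Nos3-/- and 0 to 1 in the interaction. The genes passing ran from 1471 (without Nos3-/- day 0 replicate 5) to 4142 (without replicate 3) at day 0 beside 3029, 1345 to 2295 at day 11 beside 1764, 5645 to 6641 in control over time, 4391 to 6092 in Nos3-/- over time, and 88 to 745 in the interaction beside 225. A filter at the median level kept 2 of 10 germline genes (Rnf17 and Sycp3), with 0 calls in all 5 comparisons, and 1121 genes passed at day 11, 3835 over time in control and 3756 over time in Nos3-/-, of 9097 tested. Array weights gave 6 germline genes and 3939 genes at day 11, and 1590 genes in the interaction. Over time they gave 2 germline genes and 7740 genes in control, and 1 and 6942 in Nos3-/-. Median centring gave 3 germline genes and 6670 genes over time in control, and eBayes with trend gave 2 and 6187. Only the compared arrays gave 3 germline genes with 6795 genes over time in control, and 0 with 3679 genes over time in Nos3-/-. With the replicate block 2 germline genes passed over time in control and 1 in Nos3-/-, with 6084 and 5587 of all genes passing. Whether equal replicate numbers mark related samples is not given, and correlations in 6 or 9 pairs cannot decide it. Same-numbered deviations correlated above 0.1 in 3 of 6 and 2 of 6 pairs between genotypes at day 0 and day 11. Between days they did so in 3 of 9 pairs in control and 2 of 6 in Nos3-/-. The own number was the best in 2, 1, 2 and 1. The block changed no other count of germline calls. Chosen after the data were seen, leaving out Nos3-/- replicate 3 of both days gave 7 germline genes and 4671 genes at day 0. At day 11 it gave 4 germline genes and 2464 genes, over time in control 2 and 6848, and in the interaction 1 and 1315. The pluripotency covariate gave 2 germline genes and 886 genes at day 0. At day 11 it gave 3 germline genes (1 higher, 2 lower) and 1500 genes (724 higher, 776 lower). The fibroblast and feeder covariate gave 0 germline genes at both days, with 308 genes at day 0 and 267 at day 11. Stag3, Stk31 and Sycp1 at day 0 passed in each of the 31 omissions of 1 array.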
